A study of Mus musculus with 5 samples.

Results

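The 30 genes described here encode or serve the basement membrane, the thin sheet of extracellular matrix on which epithelia, vessels, muscle and nerve rest. They were chosen by symbol from a list of collagen IV and multiplexin collagen chains, laminin chains, nidogens, heparan sulfate proteoglycans, Fraser complex proteins and associated factors, and the rule uses no measured value, though the list was drawn up with earlier results of these data known. All 30 were among the 20355 genes listed over 5 deposited tables. The tables of collections 1A and 1B listed 30 of them, that of 2A 29, that of 2B 28 and that of 2C 27, and a gene absent from a table was counted as 0. The cells came from the colonic mesenchyme of untreated C57/BL6 mice aged 10 weeks. The epithelium had been stripped with EDTA and DTT, the remaining tissue was digested with Collagenase XI and Dispase, and polyadenylated RNA was counted by Drop-seq, a droplet method in which each captured molecule carries a unique molecular identifier (UMI). There was 1 group, sampled as 2 biological replicates, the first run as Drop-seq collections 1A and 1B and the other as 2A, 2B and 2C. How many animals made up a replicate is not given in the sources used here. The main p-values below therefore measure how far differences between classes or states vary between these 2 replicates. Those given without a biological replicate rest on the spread between the collections of the other. With the epithelium removed, chains that epithelial cells make are represented by only 22 epithelial-like cells.

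A basement membrane is built from a laminin polymer and a collagen IV network. Laminins are trimers of an alpha, a beta and a gamma chain and bind cell surface receptors through the alpha chain, so the alpha chain sets which receptors a membrane engages. Collagen IV trimers are assembled from chains that pair in fixed combinations, of which the Col4a1 and Col4a2 products are the general form and the Col4a5 and Col4a6 products a form of more restricted tissues. Nidogens and perlecan (Hspg2) tie the networks together, peroxidasin (Pxdn) cross-links collagen IV, and multiplexin collagens sit at the face toward the interstitial matrix. Blood vessels have a continuous basement membrane, while that of lymphatic capillaries is thin and interrupted.

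The genes of the main collagen IV chains lie head to head in pairs, and each pair is transcribed outward from a shared region. Those 4 start regions are printed because the members of each pair are followed together below, over cell classes and fibroblast states. The windows run from 250 bases before to 50 after each annotated start, 5′ to 3′ along the gene's own strand, from RefSeq on GRCm38.p6. Capitals mark CCAAT or GGGCGG on either strand (a CCAAT box and a GC box; on the opposite strand ATTGG and CCGCCC). Col4a1 (chr8:11312777-11313076, minus strand) and Col4a2 (chr8:11312555-11312854, plus strand) start 21 bp apart, and their windows overlap by 78 bp. Col4a5 (chrX:141475169-141475468, plus strand) and Col4a6 (chrX:141474027-141474326, minus strand) start 1343 bp apart.
Col4a1: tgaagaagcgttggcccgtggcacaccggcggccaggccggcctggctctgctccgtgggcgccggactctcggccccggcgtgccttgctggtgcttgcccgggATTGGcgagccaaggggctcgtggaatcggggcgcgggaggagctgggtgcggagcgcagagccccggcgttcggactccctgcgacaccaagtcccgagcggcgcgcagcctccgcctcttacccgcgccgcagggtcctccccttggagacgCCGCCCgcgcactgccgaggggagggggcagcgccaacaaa
Col4a2: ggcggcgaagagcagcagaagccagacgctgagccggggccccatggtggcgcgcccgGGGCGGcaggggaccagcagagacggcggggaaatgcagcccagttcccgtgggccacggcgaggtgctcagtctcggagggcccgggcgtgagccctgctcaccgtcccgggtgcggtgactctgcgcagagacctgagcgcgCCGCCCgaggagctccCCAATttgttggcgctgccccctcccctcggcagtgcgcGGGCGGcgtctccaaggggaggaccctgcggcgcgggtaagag
Col4a5: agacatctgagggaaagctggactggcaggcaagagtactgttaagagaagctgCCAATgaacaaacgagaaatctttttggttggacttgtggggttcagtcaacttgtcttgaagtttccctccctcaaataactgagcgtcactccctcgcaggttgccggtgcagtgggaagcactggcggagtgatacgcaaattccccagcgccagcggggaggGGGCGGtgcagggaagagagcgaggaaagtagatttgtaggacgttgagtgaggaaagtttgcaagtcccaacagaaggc
Col4a6: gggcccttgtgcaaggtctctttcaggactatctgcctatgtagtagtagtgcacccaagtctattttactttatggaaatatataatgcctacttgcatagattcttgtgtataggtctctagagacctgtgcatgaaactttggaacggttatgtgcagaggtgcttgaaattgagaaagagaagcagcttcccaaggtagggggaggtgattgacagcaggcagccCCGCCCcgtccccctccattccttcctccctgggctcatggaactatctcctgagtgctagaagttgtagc
The Col4a1 and Col4a2 windows had a GC content of 74.0% and 73.7%, and the Col4a5 and Col4a6 windows 52.7% and 48.3%. GGGCGG occurred in all 4 windows, 3 times in that of Col4a2 and 1 time in each of the others, and CCAAT occurred 1 time in each window except that of Col4a6. The GGGCGG of the Col4a1 window lies where the windows overlap and is the same site as 1 of the 3 of Col4a2, read on the other strand. None held TATAAA. Of 32851 RefSeq promoter windows of this length, 35.7% held GGGCGG, 37.4% CCAAT and 13.6% TATAAA, on either strand. Windows were found for 21 of the 30 members.

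Of 7935 barcodes in the tables, 6005 had at least 300 genes and at most 10% mitochondrial UMIs, and 5982 remained after 23 marked doublets (0.383%) were left out; so few were marked that doublets count as not removed. The tables held 1636550 to 3345732 UMIs per collection, and kept cells a median of 1226.5 to 1455.5. Collections 2A and 2B shared 7 barcodes (5 of them kept), 1B and 2A 2 (0 kept) and 1A and 2B 1 (1 kept). Leaving those barcodes out ended no call on a member. Cells were clustered on genes other than the members and the pathway lists, and clusters were named from marker genes, so each class name below means cells like that type. Tested were 3125 fibroblasts, 574 blood endothelial cells, 166 lymphatic endothelial cells, 238 pericytes, 242 smooth muscle cells, 299 enteric glia, 475 macrophages, 121 dendritic cells, 389 T, NK or innate lymphoid cells (ILC) and 229 B cells. The class markers were seen beyond their own class: smooth muscle markers summed to 7619 CPM in pericytes, and blood endothelial markers to 2082 CPM in lymphatic endothelium. Fibroblast markers, at 15528 CPM in fibroblasts, summed to 2189 CPM in smooth muscle, 1316 in pericytes, 1039 in glia and 627 in blood endothelium. Pericyte markers summed to 922 CPM in smooth muscle. The part of all these markers in the results was not tested.

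Basement membrane RNA was carried by all 6 stromal and neural classes, each with its own mix of chains. Levels are given as CPM, the UMIs of a gene summed over the cells of a class and scaled to 1000000 UMIs, as mean ± SD of the 2 biological replicates. Values in single collections are in the order 1A, 1B, 2A, 2B and 2C. Without Sparc, which made up much of the total, the members summed to 3167 ± 107 CPM in fibroblasts, 3123 ± 22.4 in blood endothelium, 2718 ± 106 in lymphatic endothelium, 2694 ± 482 in pericytes, 2311 ± 139 in smooth muscle and 2298 ± 14.9 in enteric glia. Macrophages, dendritic cells and B cells held 279.6, 227 and 205 CPM, and the T, NK and ILC class 432. The summed amount was thus close in fibroblasts and blood endothelium, and what differed was which members made it up.

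**Figure D1:**
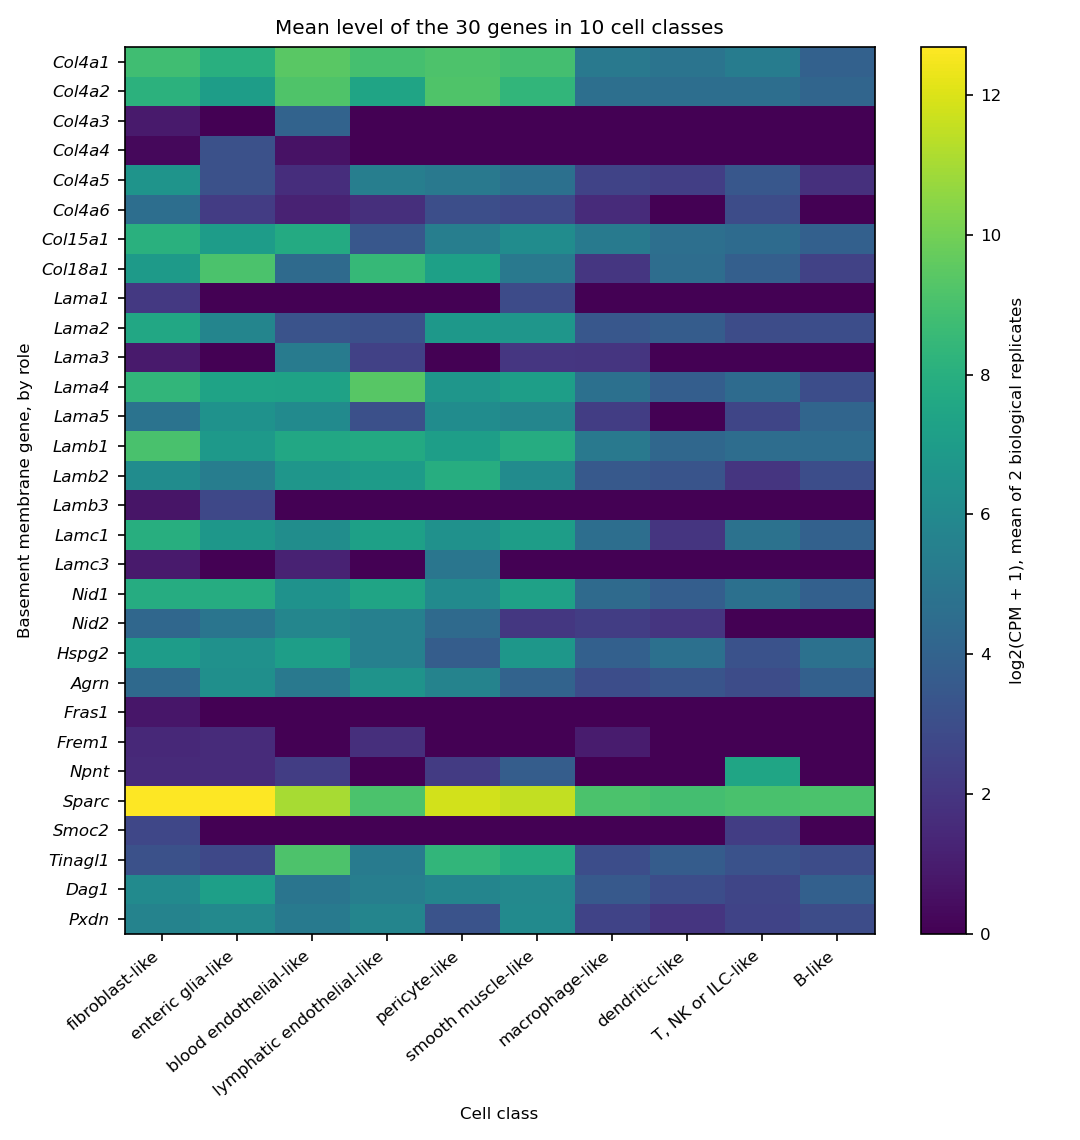
Level of each member in each tested cell class, as a color scale of log2 of CPM with 1 added, mean of 2 biological replicates, with members in rows ordered by role and classes in columns. Sparc is the brightest row in every class but lymphatic endothelium, where Lama4 is brighter. Among the other members, the brighter cells sit in different rows for each class. Examples are Lamb1 in fibroblasts, Tinagl1 and Col4a2 in blood endothelium, Lama4 and Col18a1 in lymphatic endothelium, Col18a1 in glia and Npnt in the T, NK or ILC class.

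Each class was compared with the mean log level of the other 9, by edgeR's quasi-likelihood test with Benjamini-Hochberg adjustment over 6939 genes and a threshold of 0.05. The low-count filter passed 20 of the 30 members, Npnt only through the class where it was high, and the counts below are over those 20. Fibroblasts had 17 members higher and 1 lower, against 32.9% and 14.6% of all genes. Blood endothelium had 15 higher and 3 lower (29.1% and 16.6% of all genes), and lymphatic endothelium 12 and 3 (20.4% and 13.3%). Enteric glia had 14 higher and 1 lower (24.2% and 12.6%), smooth muscle 15 and 0 (20.2% and 8.72%), and pericytes 9 and 1 (14.5% and 6.89%). The 15 of smooth muscle include Npnt, which had a UMI in only 3 of 242 smooth muscle cells. That call ended in 7 of 17 alternatives. The median log2 difference over the tested members was 1.96 in fibroblasts, 1.33 in blood endothelium, 1.43 in lymphatic endothelium, 1.39 in glia, 1.49 in smooth muscle and 1.35 in pericytes. Over all genes tested it lay between -0.04 and 0.14 in those classes. A direction called against the mean of the other classes includes 4 immune classes with few member UMIs, so fitted folds are printed only for genes with more than 3 UMIs in every class, and direct contrasts between 2 stromal classes carry the finer comparisons. Since clusters were cut from the same cells that were then compared, the p-values are smaller than independent cells would give, also for genes kept out of the clustering. With clusters and sums taken from non-overlapping random parts of each cell's UMIs, the count of members called fell from 18 to 11 in blood endothelium and from 15 to 9 in smooth muscle. Those sums also held fewer UMIs than the full sums, and the part of the lower depth in this fall was not tested.

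Collagen IV chains Col4a1 and Col4a2 were present in every stromal class and highest in the vessel wall. Col4a1 stood at 605, 731, 665, 843 and 647 CPM in blood endothelium, and at 376 to 895 in pericytes, 391 to 647 in lymphatic endothelium and 422 to 496 in fibroblasts. Blood endothelium lay above fibroblasts in every collection without overlap, while the pericyte and lymphatic ranges overlapped it. Against the other classes, Col4a1 in blood endothelium differed by 2.40 ± 0.12 (SE), adjusted p = 7.6e-86 on the log2 scale. Col4a2 stood at 629, 563, 684, 507 and 456 CPM in blood endothelium and 591, 401, 577, 693 and 792 in pericytes. Both classes were higher than the mean of the others, by 2.79 ± 0.13 (SE), adjusted p = 1.1e-101 in blood endothelium and 2.63 ± 0.20 (SE), adjusted p = 7.5e-36 in pericytes. Lymphatic endothelium held 183, 176, 179, 145 and 133 CPM, below every blood endothelial collection. The direct contrast of blood with lymphatic endothelium was 1.93 ± 0.21 (SE), adjusted p = 2.3e-19 for Col4a2. For Col4a1 it was 0.60 ± 0.16, a call that ended with DESeq2 (0.52, adjusted p = 0.065) and without either biological replicate.

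The balance of these chains therefore differed between the endothelia. Col4a2 gave 47.3% and 44.6% of the Col4a1 and Col4a2 UMIs of blood endothelium in biological replicates 1 and 2. In lymphatic endothelium it gave 26.8% and 23.4%, and in pericytes 52.3% and 49.4%. Fibroblasts and glia lay between, at means of 39.1% and 34.2%. Drop-seq tags the 3′ ends of transcripts and captures genes with unequal efficiency, so such a share is compared between classes and not read as a ratio of chains.

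The restricted chains followed another pattern. Col4a5, the partner of Col4a6, stood at 94.4 ± 3.63 CPM in fibroblasts, 41.6 ± 7.77 in lymphatic endothelium, 33.6 ± 23.2 in pericytes and 24.8 ± 0.738 in smooth muscle. In blood endothelium it was 2.18 ± 1.61 CPM, from 3 UMIs. It was higher in fibroblasts than in the mean of the others (adjusted p = 3.4e-49) and higher in lymphatic than in blood endothelium (adjusted p = 9.4e-07). Col4a6 reached 23.2 ± 2.48 CPM in fibroblasts and did not pass the class filter. The kidney-type chains were nearly absent: Col4a3 had 27 UMIs in all kept cells, 23 of them in blood endothelium, and Col4a4 had 7.

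The multiplexin collagens, whose C-terminal fragments are known as inhibitors of vessel growth, differed between the endothelia in opposite directions. Col18a1, the precursor of endostatin, stood at 549.5, 503, 466, 614 and 672 CPM in enteric glia and 298, 342, 309, 457 and 431 in lymphatic endothelium. In blood endothelium it was 20.1 ± 2.66 CPM, below every lymphatic collection. The contrast of blood with lymphatic endothelium was -3.93 ± 0.28 (SE), adjusted p = 4.8e-42, and that of fibroblasts with glia -2.14 ± 0.16 (SE), adjusted p = 2.3e-39. Col15a1, which is anchored at the outer face of vessel and muscle basement membranes, went the other way. It stood at 253, 166, 211, 307 and 144 CPM in blood endothelium and at 9.71 ± 5.41 in lymphatic endothelium, from 4 UMIs. Blood exceeded lymphatic endothelium by 4.49 ± 0.46 (SE), adjusted p = 6.2e-21, and the collections of the classes did not overlap. Fibroblasts held 260.4 ± 19.6 CPM of it, 2.84 ± 0.36 on the log2 scale above pericytes and 1.12 ± 0.21 above glia.

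Levels of the laminin alpha chains differed between the classes. Lama4, the alpha chain of vessel and adipose laminins, stood at 634, 783, 619, 664 and 597 CPM in lymphatic endothelium, against 177, 171, 162, 88.5 and 174 in blood endothelium and 367, 351, 299, 342 and 269 in fibroblasts. Every lymphatic collection lay above every collection of the other 9 classes. The contrast of blood with lymphatic endothelium was -1.91 ± 0.18 (SE), adjusted p = 3.6e-25. In blood endothelium the value of collection 2B was low beside the other 4. Lama5, the alpha chain of mature vessel, muscle and epithelial basement membranes, had the opposite order. It stood at 77.6, 70.9, 56.4, 58.97 and 59.95 CPM in blood endothelium and 7.46 ± 2.22 in lymphatic endothelium, from 3 UMIs (adjusted p = 4.7e-06 for the contrast). Enteric glia held 87.4 ± 14.9 CPM and pericytes 70.9 ± 9.19, and both were higher than the mean of the other classes (adjusted p = 2.8e-12 and adjusted p = 0.00015).

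Lama2, the alpha chain of muscle and Schwann cell laminin, had its highest mean level in fibroblasts. It stood at 193, 194, 194, 197 and 184 CPM in fibroblasts, 107 ± 30.5 in pericytes, 46.3 to 196 over the collections of smooth muscle, 54.2 ± 15.7 in glia, and 8.56 and 7.46 in blood and lymphatic endothelium. Fibroblasts, pericytes, smooth muscle and glia were each higher than the mean of the others (adjusted p = 8.5e-99, adjusted p = 7.1e-07, adjusted p = 4.3e-08 and adjusted p = 0.0013). Fibroblasts exceeded glia by 1.90 ± 0.27 (SE), adjusted p = 1.5e-11. Lama3, an epithelial chain that also has a short endothelial form, had 67 UMIs in kept cells. Of these, 57 were in blood endothelium, where it stood at 29.9, 31.03, 52.6, 47.2 and 35.97 CPM. It was above the filter's cutoff in 1 class only, did not pass the filter and was not tested. Lama1 had 17 UMIs, 15 of them in fibroblasts.

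**Figure D2:**
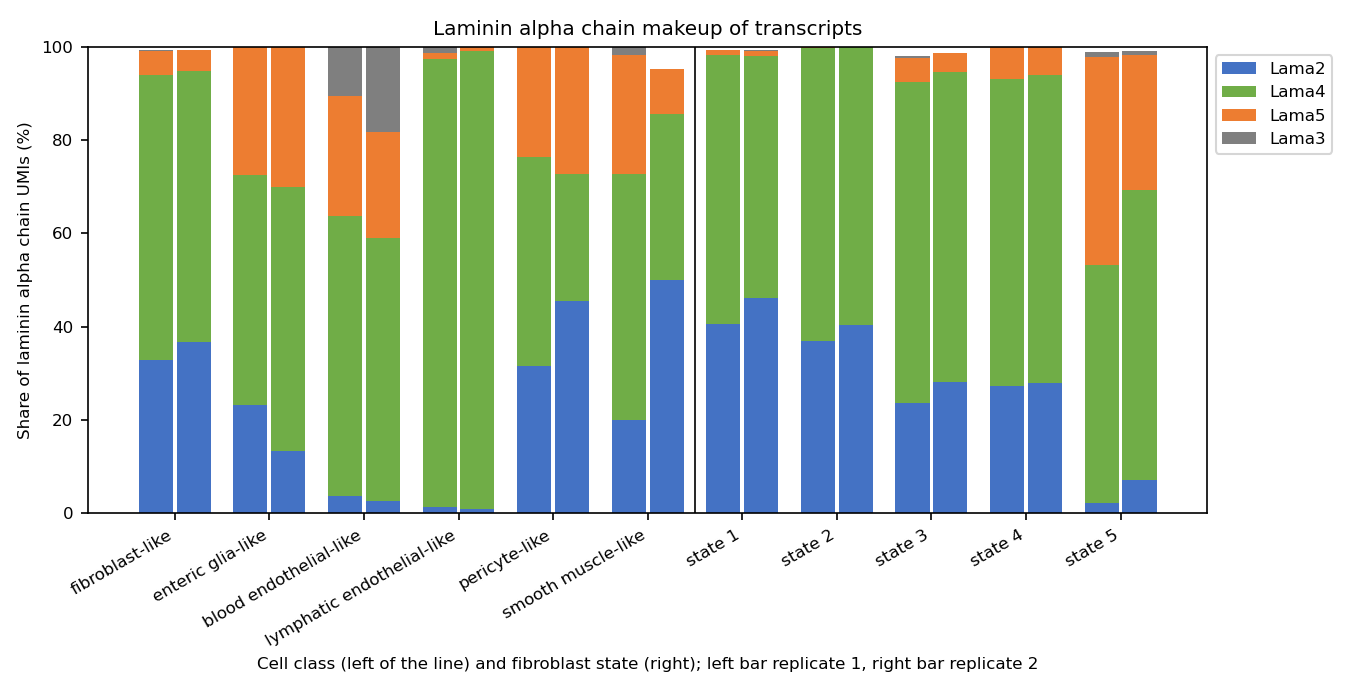
Share of laminin alpha chain UMIs held by Lama2, Lama3, Lama4 and Lama5, in percent, in stromal and glial classes and in fibroblast states 1 to 5, with the left bar of each pair for biological replicate 1 and the right bar for biological replicate 2 (the remainder is Lama1). As means of the replicates, lymphatic endothelium is nearly all Lama4 (97.2%), blood endothelium holds 58.3% Lama4, 24.2% Lama5 and 14.3% Lama3, and fibroblast state 5 has 36.9% Lama5 where the other states have at most 6.40%.

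As the plot of alpha chain shares shows, the mix differed between the endothelia in both replicates: Lama4 gave 96.2% and 98.1% in lymphatic endothelium, and 60.1% and 56.5% in blood endothelium. The beta chains differed as well. Lamb1, the widespread beta chain, stood at 521, 569, 511, 517 and 493 CPM in fibroblasts, above every collection of the other 9 classes. It exceeded pericytes by 2.18 ± 0.24 (SE), adjusted p = 1.3e-17 and glia by 2.27 ± 0.20 (SE), adjusted p = 1.3e-27. Lamb2, the beta chain of synaptic, kidney and mature vessel laminins, was highest in pericytes, at 224, 155, 244, 289 and 355 CPM against 77.8, 71.4, 69.2, 72.2 and 65.8 in fibroblasts. Every pericyte collection lay above every fibroblast collection. Pericytes were higher than smooth muscle by 1.67 ± 0.40 (SE), adjusted p = 0.00059, and without biological replicate 2 this was 1.64, adjusted p = 0.057. Lamb2 gave 63.4% and 62.96% of the Lamb1 and Lamb2 UMIs of pericytes, against a mean of 12.1% in fibroblasts. Lamc1, the gamma chain of most laminins, stood at 251 ± 1.03 CPM in fibroblasts and between 72.7 and 146 CPM in the other stromal classes. Fibroblasts exceeded pericytes by 1.79 ± 0.30 (SE), adjusted p = 4e-08.

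The linkers were shared between fibroblasts and glia or held by vessels. Nid1 stood at 230.2, 250.3, 224, 248 and 199 CPM in fibroblasts and 241, 283, 349, 161 and 65.01 in glia, where the collections spread widely and collection 2C was lowest. Each class was higher than the mean of the others, by 2.30 ± 0.14 (SE), adjusted p = 4e-59 in fibroblasts and 2.20 ± 0.22 (SE), adjusted p = 6.3e-22 in glia. Nid2 was a lower and more endothelial gene, at 63.7, 55.4, 71.4, 41.3 and 29.98 CPM in blood endothelium, 44.7 ± 13.3 in lymphatic endothelium and 17.9 ± 3.14 in fibroblasts. Hspg2, which encodes perlecan, stood at 136 ± 9.73 CPM in blood endothelium, 128 ± 5.27 in fibroblasts and 127, 76.7, 121, 117 and 74.97 in smooth muscle. Pericytes had 3 UMIs of it in all, with 0 in collections 1A and 2B. Pericytes were lower than smooth muscle (adjusted p = 8.8e-05) and than fibroblasts (adjusted p = 1.5e-09). Agrn, the proteoglycan that organises neuromuscular synapses, stood at 45.8, 66.2, 130.3, 166 and 99.5 CPM in lymphatic endothelium and 79.7 ± 14.8 in glia. The contrast of fibroblasts with glia was -1.97 ± 0.37 (SE), adjusted p = 7e-07.

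Tinagl1, a secreted matrix protein that binds integrins and laminin, was highest in blood endothelium and mural cells. It stood at 589, 556, 620.2, 442 and 635 CPM in blood endothelium, 304, 311, 311, 404 and 328 in pericytes and 220.1, 243, 226, 253 and 149.9 in smooth muscle, and the other 7 tested classes lay below every collection of these 3. Lymphatic endothelium held 7.64, 44.1, 65.1, 20.8 and 66.3 CPM, and the contrast of blood with lymphatic endothelium was 4.13 ± 0.29 (SE), adjusted p = 5.2e-44 (3.40, adjusted p = 2.5e-13 without biological replicate 1). Fibroblasts held 7.93 ± 0.426 CPM, and the contrast with pericytes was -5.07 ± 0.32 (SE), adjusted p = 7.5e-53. After cells were thinned to 800 UMIs each, a Tinagl1 UMI was found in 36.2% (95% interval 32.1 to 40.6%, Wilson) of blood endothelial cells, 23.5% of pericytes and 13.3% of smooth muscle cells. In macrophages the share was 0.51%. The median depths were 1854.5 UMIs in blood endothelium and 1785 in macrophages before thinning.

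Sparc, a collagen-binding matricellular protein and the most abundant member, stood at 6737, 7046, 6557, 6067 and 6291 CPM in fibroblasts and 6203, 6081, 6248, 6416 and 7617 in glia. Pericytes, smooth muscle and blood endothelium held 3608 ± 76.1, 2990.1 ± 523 and 2099 ± 33.7 CPM. Lymphatic endothelium held 306, 529, 309, 539.6 and 1178 CPM, near the 543 CPM of macrophages. The contrast of blood with lymphatic endothelium was 2.13 ± 0.15 (SE), adjusted p = 2.4e-41, with no overlap of collections. Dag1, which encodes dystroglycan, the laminin receptor of muscle and Schwann cells, stood at 158, 102, 191, 117 and 152 CPM in glia and 66.8 ± 1.38 in fibroblasts, and glia were higher than the mean of the other classes (adjusted p = 1.3e-19). Pxdn, the peroxidase that forms the sulfilimine bond of collagen IV, lay between 50.6 and 65.1 CPM in fibroblasts, lymphatic endothelium, glia and smooth muscle and stood at 35.3 ± 4.01 in blood endothelium. Those 5 classes were each higher than the mean of the others (adjusted p = 3.3e-13, adjusted p = 0.00021, adjusted p = 2.2e-07, adjusted p = 1.7e-05 and adjusted p = 0.00069). Pericytes had 2 Pxdn UMIs.

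**Figure D3:**
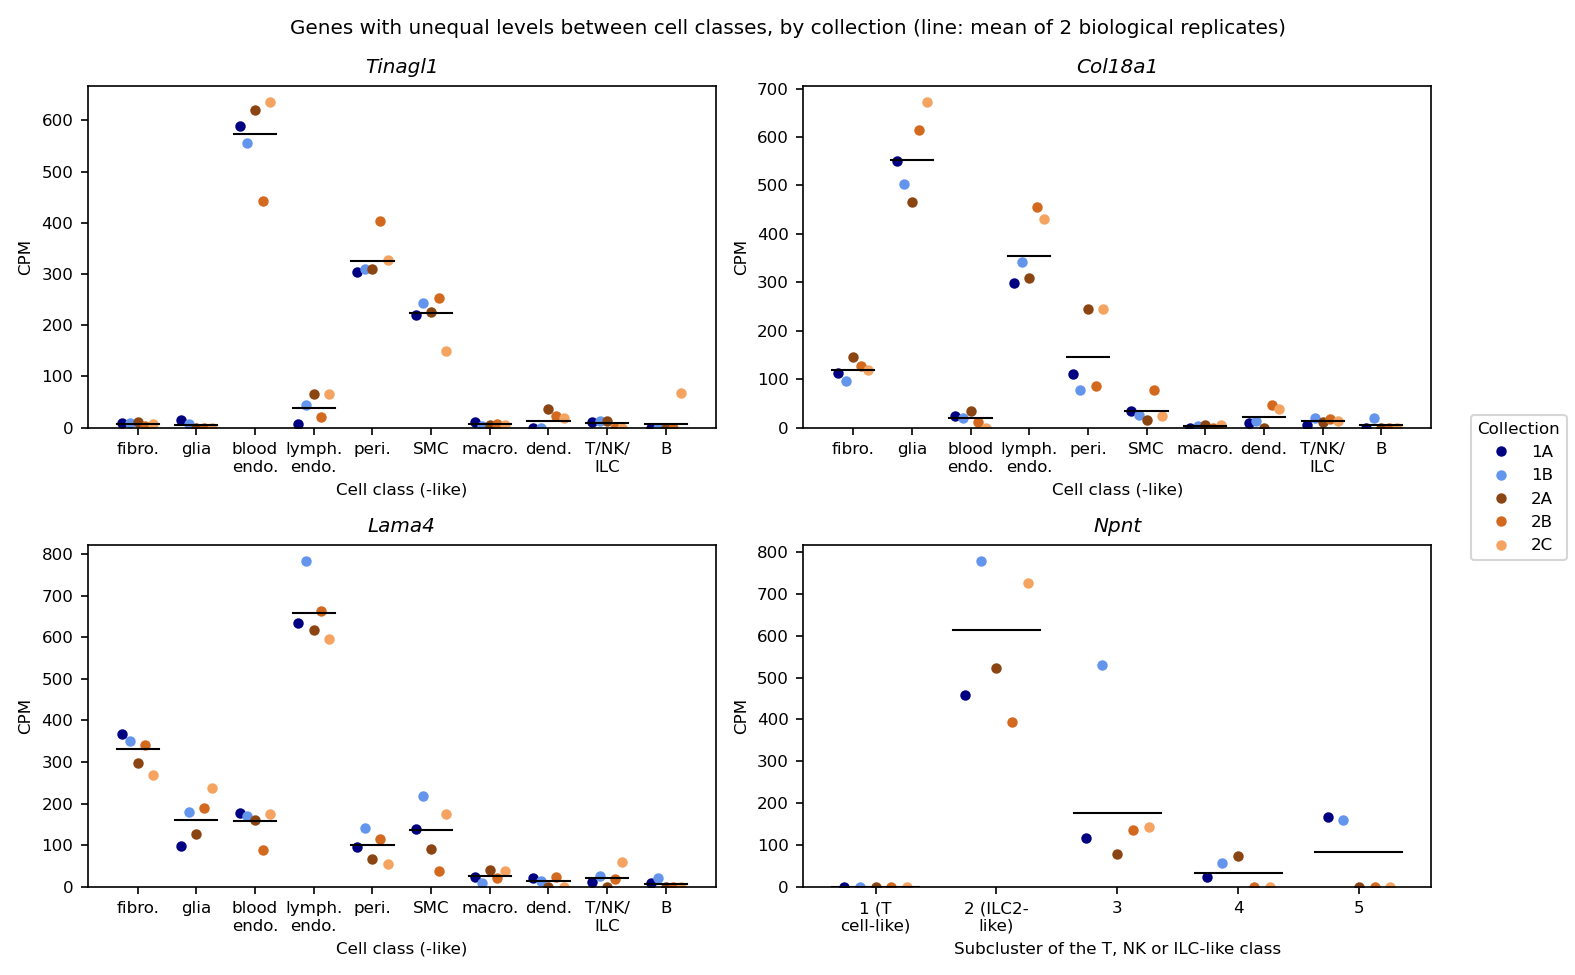
CPM of Tinagl1, Col18a1 and Lama4 in each tested class (SMC is smooth muscle), and of Npnt in the 5 subclusters of the T, NK or ILC class, with 1 point per collection (blue for biological replicate 1, brown and orange for 2) and a line at the mean of the 2 biological replicates. Blood endothelium, pericytes and smooth muscle are highest in Tinagl1, glia and lymphatic endothelium in Col18a1 and lymphatic endothelium in Lama4. Npnt is highest in subcluster 2 and at 0 in subcluster 1, which like subcluster 4 is T-like.

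Npnt, which encodes nephronectin, the ligand of integrin alpha 8 beta 1, was held outside the stroma. It stood at 107, 262, 150.3, 86.8 and 267 CPM in the T, NK and ILC class, which held 95 of its 117 UMIs, and at 12.4 ± 0.369 in smooth muscle (4 UMIs). B cells, dendritic cells, macrophages and lymphatic endothelium had 0. Within the lymphoid class its UMIs were spread unevenly over 5 subclusters. Subcluster 2 (81 cells, led by Il5 and Hs3st1, with 8 of 8 markers of group 2 innate lymphoid cells raised) held 72 UMIs and stood at 458, 778, 523, 393 and 726 CPM. Subcluster 3 (71 cells, led by Cd163l1 and Il10) stood at 117, 531, 78.9, 134 and 143. It took the same name on fewer markers, with 3 of 8 raised and 2 of 7 T cell markers raised as well. Subclusters 4 (56 cells, led by Klra8 and Klri2) and 5 (26 cells, led by Il22) held 4 and 3 UMIs, and subcluster 1 (155 cells) had 0. Both subclusters 1 and 4 were T-like, each with 5 of 7 T cell markers raised, so the count of 0 does not cover all T-like cells. At 800 UMIs a cell, 30.9% (95% interval 21.2 to 42.6%, Wilson) of subcluster 2 had an Npnt UMI (48.1% before thinning), as had 13.8% of subcluster 3, 4.35% of subcluster 4 and 12.5% of subcluster 5 (3 of 24 cells). Subcluster 1 had 0 of 118 cells, which allows a share of cells with a UMI of up to 2.54%. Subclusters were described without a test.

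Most other members stood lower in the immune classes. Macrophages had 15 members lower and 0 higher (15% and 29.1% of all genes), the T, NK and ILC class 15 lower (16%; its 1 higher member was Npnt, which the filter passed only through this class and which is not counted here), B cells 11 and 0 (17.3% and 17.5%) and dendritic cells 10 and 0 (11.3% and 17.9%). Without collection 1B the macrophage count was 9. The 13 members with 500 or more UMIs in stromal classes stood in the immune classes at 5.14% to 13.1% of their stromal CPM, with a median of 7.22%. Sparc lay inside this range, at 10.4%. Members with fewer UMIs could lie above it, such as Agrn at 24.3% (16 immune UMIs) and Dag1 at 14.9% (20). Free RNA in droplets gives all cells a like low share of abundant genes, and its part here was not tested.

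The wider pathway was read from lists of genes outside the 30. In fibroblasts, 6 of 9 tested further basement membrane components were higher and 1 lower, against 32.9% and 14.6% of all genes, with a median log2 difference of 2.48. They included Fbln1 at 979 ± 30.2 CPM, Hmcn2 at 135 ± 1.45 and Fbln2 at 332 ± 37.5, which encode the fibulins 1 and 2 and a hemicentin. All 10 tested turnover genes and all 9 interstitial matrix genes were higher in fibroblasts as well (medians 3.15 and 4.19), among them Mmp2 and Col1a2 (log2 differences 3.94 ± 0.12 and 4.61 ± 0.08). Blood endothelium had 4 of 9 components higher and 2 lower, while 7 of 9 interstitial matrix genes were lower and 0 higher (29.1% of all genes were higher and 16.6% lower). Mmrn2, the endothelial multimerin, stood at 465 ± 19.6 CPM in blood and 577 ± 25.8 in lymphatic endothelium. Lymphatic endothelium also held Hmcn1 (118 ± 17.6 CPM, against 14.1 in blood endothelium) and Timp3, the matrix-bound protease inhibitor, at 6995 ± 294 CPM. Neither was particular to it. Timp3 was also called higher than the mean of the other classes in fibroblasts, blood endothelium, glia and pericytes. Hmcn1 was also called higher in blood endothelium and smooth muscle. Timp2 differed between the endothelia by -3.83 ± 0.18 (SE), adjusted p = 3.1e-99, and the protease Adamts4 by 4.59 ± 0.27 (SE), adjusted p = 2.6e-60.

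Receptors of the basement membrane were counted in the same way. Of 17 tested receptor genes, 11 were higher and 1 lower in pericytes, against 14.5% and 6.89% of all genes. The counts were 11 and 0 in enteric glia (24.2% and 12.6%), 10 and 0 in smooth muscle (20.2% and 8.72%), 10 and 1 in fibroblasts (32.9% and 14.6%) and 7 and 1 in lymphatic endothelium (20.4% and 13.3%). In blood endothelium they were 6 and 3 (29.1% and 16.6%), near the shares of all genes. Their median log2 difference was 1.82 in pericytes, 2.08 in glia, 2.24 in smooth muscle, 0.81 in fibroblasts, 0.62 in lymphatic and -0.07 in blood endothelium. Pericytes held the laminin receptors Itga7 (141 ± 7.25 CPM) and Bcam (217 ± 27.1 CPM), against 2.19 and 4.42 in fibroblasts. Itga8, whose product pairs with integrin beta 1 to bind nephronectin, stood at 121 ± 16.8 CPM in smooth muscle and 54.4 ± 3.99 in pericytes. Glia held Itga2 (79.6 ± 9.32 CPM) and Itgb4 (52.4 ± 2.03 CPM), and Itgb4 was also found in blood endothelium (47.8 ± 5.24 CPM). In glia 5 of 9 further components were higher and 0 lower, among them Vwa1, a perlecan-binding protein, at 364 ± 123 CPM, and Matn2 at 497 ± 1.29.

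Direct contrasts of neighbouring classes gave the finer differences. Between blood and lymphatic endothelium, 7 members were higher in blood and 6 in lymphatic endothelium, against 21.3% and 17.2% of all genes. Col4a2, Col15a1, Lama5, Hspg2, Sparc and Tinagl1 leaned to blood with Col4a1, and Col18a1, Col4a5, Lama4, Lamc1, Nid1 and Agrn to lymphatic endothelium. A blood endothelial subcluster of 97 cells with a median of 5236 UMIs had a summed pericyte marker level of 461 CPM, against 102 to 160 in the other blood endothelial subclusters, and without it all 13 calls held. Against the other classes, the Lamc1 and Nid1 calls of blood endothelium ended without that subcluster (0.53, adjusted p = 0.12 and 0.54, adjusted p = 0.067). The Agrn and Nid1 calls between the endothelia ended without collection 2B (-1.05, adjusted p = 0.061 and -0.70, adjusted p = 0.053), and that of Lamc1 without 1A or 2C (-0.85, adjusted p = 0.052 for 1A). Between pericytes and smooth muscle, 3 were higher in pericytes and 3 in smooth muscle (7.09% and 8.26% of all genes). Col18a1, Col4a2 and Lamb2 were the former and Hspg2, Nid1 and Pxdn the latter, of which Col4a2 ended without collection 2B or 2C (0.70, adjusted p = 0.054 for 2B) and Nid1 without 1A or 2C (-1.20, adjusted p = 0.099 for 1A). Of members in this contrast, 3 were called with UMIs split between clusters and sums, and 3 and 2 without biological replicate 1 or 2. Fibroblasts had 10 members higher and 3 lower than pericytes (14.3% and 10.1%), and 10 higher and 4 lower than glia (21.4% and 20.4%). Of the 10 higher than in glia, the Hspg2 call ended in 11 of 18 alternatives and the Lamb2 call in 11 of 19. The 3 that were higher in pericytes were Col4a2, Lamb2 and Tinagl1, and the 4 higher in glia were Col18a1, Lama5, Agrn and Dag1. Without biological replicate 2 the calls of Col4a2 (-0.34, adjusted p = 0.42), Lamb2 (-1.01, adjusted p = 0.052) and Dag1 (-0.85, adjusted p = 0.06) ended.

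Fibroblasts themselves fell into 5 states with different basement membrane profiles. State 1 (1458 cells) was led by Mgp, Edil3 and Grem1 and raised markers of both lamina propria (4 of 6) and adventitial fibroblasts (5 of 11). State 2 (594 cells) was led by Pcolce2, Pi16 and Has1 and raised 11 of 11 adventitial or submucosal markers. State 3 (404 cells) was led by Saa3, Serpina3g and Niacr1 and is unnamed. State 4 (345 cells; Procr, Sox6, Ednrb, Bmp3 and Aldh1a1) raised 5 of 8 and state 5 (324 cells; Plau, Il1rl1, Nrg1 and Ereg) 7 of 8 markers of subepithelial fibroblasts, the cells that lie beneath the crypt epithelium. Their median depths were 1146, 1530, 1754, 981 and 1673 UMIs a cell. State 3 was not found with a minimum of 200 genes per barcode or with split UMIs, and state 4 was not found when the top 5% of doublet scores were left out. Cells were clustered again in those settings. Their folds below compare a state with the other states found there, so they are not the same contrast as the main folds.

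**Figure D4:**
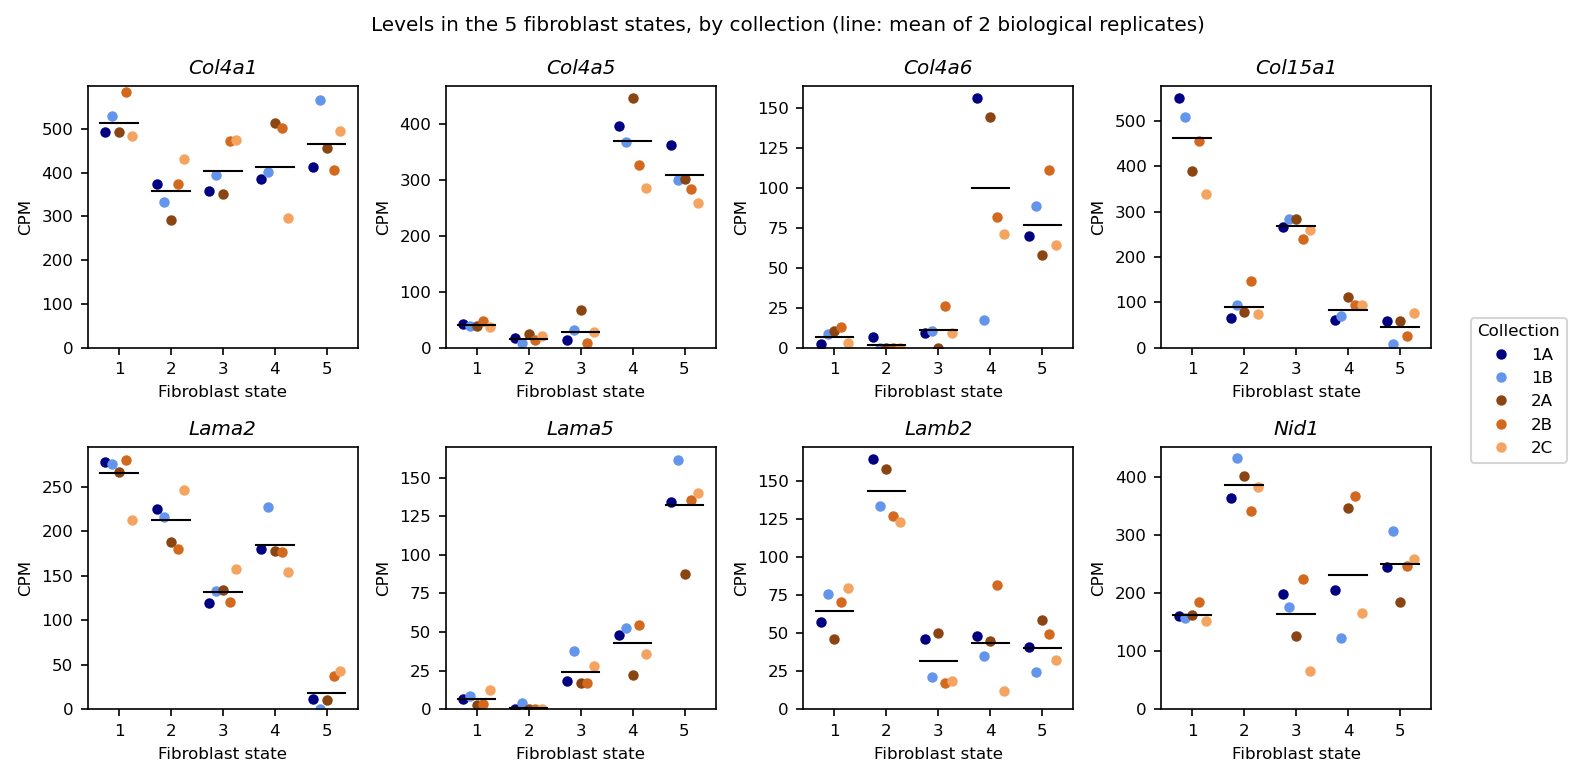
CPM of 8 members in each fibroblast state, with 1 point per collection (blue for biological replicate 1, brown and orange for 2) and a line at the mean of the 2 biological replicates. Col4a5 and Col4a6 are high in states 4 and 5, Lama5 in state 5, Col15a1 in states 1 and 3 and Lamb2 and Nid1 in state 2, Lama2 is low in state 5, and the Col4a1 means lie between 359 and 513 CPM.

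Each state was compared with the mean log level of the other 4, over 6384 genes of which 18 were members. State 1 had 4 members higher and 4 lower (12.9% and 13.2% of all genes), state 2 had 5 and 9 (19.3% and 14.7%), state 3 had 4 and 1 (8.87% and 1.55%), state 4 had 4 and 1 (9.93% and 11%) and state 5 had 6 and 5 (15.8% and 8.57%). The median log2 difference of the members was 0.12, -0.49, 0.22, -0.01 and 0.28 in states 1 to 5, and over all genes it lay between -0.02 and 0.05.

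The restricted collagen IV chains marked the subepithelial states. Col4a5 stood at 396, 367, 446, 326 and 284 CPM in state 4 and 361, 299, 301, 284 and 258 in state 5, and no collection of another state exceeded 66.9 CPM. The difference from the other states was 2.72 ± 0.20 (SE), adjusted p = 9.5e-19 in state 4 and 2.72 ± 0.19 (SE), adjusted p = 7e-21 in state 5. Col4a6 stood at 156, 17.5, 145, 81.5 and 71.1 CPM in state 4 and 69.9, 88.8, 58.3, 111 and 64.6 in state 5, against 6.86, 1.83 and 10.8 in states 1 to 3 (adjusted p = 4.6e-09 and adjusted p = 2.4e-09 for states 4 and 5). Together Col4a5 and Col4a6 gave 39.5% and 41.1% of the collagen IV UMIs of state 4 and 33.6% and 32.6% of state 5, against means of 3.14% to 5.46% in the others. Col4a1 and Col4a2 varied far less, from 359 to 513 and from 202 to 338 CPM. Thinned to 800 UMIs, 21.3% (95% interval 16.4 to 27.1%, Wilson) of state 4 cells and 18.8% of state 5 cells had a Col4a5 UMI, against 1.01% to 2.79% in the other states. Of 392 macrophages 0 had one, which allows a share of cells with a UMI of up to 0.765%. With a minimum of 200 genes the Col4a5 difference in state 4 was 1.88, adjusted p = 8.5e-21. With split UMIs it was 2.05, adjusted p = 2e-05 in state 4 and 1.69, adjusted p = 1.6e-08 in state 5. State 3 was not found in either setting, so these differences are from fewer states.

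Markers of other cell types also moved with these states. The summed smooth muscle markers stood at 985 CPM in state 4, against 266 to 465 in the other states, with all 8 markers detected. The smooth muscle class held 24.8 CPM of Col4a5 and 6.08 of Col4a6. The 4 markers listed for interstitial cells of Cajal summed to 569, 591 and 996 CPM in states 3, 4 and 5, against 143 and 68.1 in states 1 and 2. The part of these smooth muscle and Cajal markers in the results was not tested. Epithelial markers summed to at most 30.6 CPM in any state, with Cdh1 at 0 in all 5.

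Laminin alpha chains divided the subepithelial states from each other. Lama5 stood at 134, 162, 87.5, 136 and 139.9 CPM in state 5 (76 UMIs) and 43.1 ± 9.54 in state 4, against 6.66 in state 1, 0.914 in state 2 (1 UMI) and 23.8 in state 3. Every collection of state 5 lay above every collection of the other 4 states (adjusted p = 6.9e-17). State 4 was also called higher (adjusted p = 0.02), a call that ended in 7 of 17 alternatives. Among them were those without collection 1A (adjusted p = 0.098) and without collection 2B (adjusted p = 0.082). Lama2 was the reverse: 11.7, 0, 9.72, 37.01 and 43.04 CPM in state 5, from 10 UMIs, against 279, 276, 267, 281 and 213 in state 1 and 131 to 213 in states 2 to 4. No state 5 collection reached any collection of the other 4 states. The difference from the other states was -3.31 ± 0.33 (SE), adjusted p = 1.2e-13, and it was called in all 18 alternatives run. It was smallest when the top 5% of doublet scores were left out (-1.22, adjusted p = 8.6e-07), a setting in which state 4 was not found. Without biological replicate 2, state 5 held only 2 Lama2 UMIs, so no fold is given. State 4, the other Col4a5-rich state, stood at 184 ± 21.05 CPM of Lama2. Lama2 was higher in state 1 by 1.33 ± 0.15 (SE), adjusted p = 4.5e-11 (0.62, adjusted p = 0.0085 with split UMIs). Lama4 was 211 CPM in state 5 and 338 to 442 in the others. Its call in state 5 (-0.65 ± 0.16) ended in 4 alternatives, among them split UMIs (0.01, adjusted p = 0.99).

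State 2, with the adventitial markers, had the highest mean Lamb2 and Nid1. Lamb2 stood at 164, 134, 158, 127 and 123 CPM there and Nid1 at 363, 432, 400.4, 341 and 383, and Lamb2 lay above every collection of the other 4 states. Nid1 lay above every collection of states 1, 3 and 5, while the highest collection of state 4 (367 CPM) overlapped it. The differences were 1.76 ± 0.20 (SE), adjusted p = 2.1e-11 for Lamb2 and 0.99 ± 0.13 (SE), adjusted p = 1.9e-09 for Nid1. Lamc1, at 331 ± 17.5 CPM, was higher by 0.68 ± 0.13 (SE), adjusted p = 2.7e-05. Lamb1 went the other way, at 306 ± 55.6 CPM in state 2 against 717 ± 36.97 and 753 ± 69.3 in states 4 and 5, with a difference of -0.996 ± 0.12 (SE), adjusted p = 1.2e-10. Lamb2 gave 30.3% and 33.9% of the Lamb1 and Lamb2 UMIs of state 2, against means of 5.12% to 11.4% in the others. Col18a1 was lowest in state 2, at 31.6 ± 1.79 CPM against 131 to 172 elsewhere, with a difference of -2.14 ± 0.24 (SE), adjusted p = 1e-11. Smoc2, a calcium-binding matricellular protein, had 19 of its 25 fibroblast UMIs in state 2 and was not tested. The 4 mesothelial markers, all detected in state 2, summed to 19.1 CPM there against 0.485 to 4.04 in the other states, and the 6 epithelial markers to 30.6 against 5.60 to 8.92. Their part in the state 2 differences was not tested.

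Col15a1 was highest in state 1. It stood at 551, 509, 390.0, 456 and 338 CPM there, 268 ± 8.53 in state 3, and 89.2, 82.5 and 45.7 in states 2, 4 and 5. The difference was 2.10 ± 0.13 (SE), adjusted p = 6.4e-22 in state 1 and 1.37 ± 0.17 (SE), adjusted p = 1.2e-09 in state 3. Pericyte markers summed to 206 CPM in state 1 against 62.9 to 154 in the other states, and enteric glia markers to 135 against 60.7 to 85.4. Their part in the state 1 differences was not tested. Col15a1 was lower in state 5 (-1.82 ± 0.27), which ended with split UMIs (-0.25, adjusted p = 0.57), and in state 4 (-0.94 ± 0.26), where it turned to 0.28, adjusted p = 0.25 with a minimum of 200 genes. Sparc, highest in state 1, was lowest in state 5, at 3700.5, 3748, 3605, 3861 and 3766 CPM, below every collection of the other states. That difference of -0.70 ± 0.09 also ended with split UMIs (-0.26, adjusted p = 0.064). Hspg2 was higher in state 4 (206 ± 11.1 CPM, adjusted p = 0.0012), a call that ended in 4 alternatives, and Pxdn was higher in state 5 (91.4 ± 23.9 CPM, adjusted p = 0.00047), which ended without biological replicate 2 (0.79, adjusted p = 0.21). Apart from Col15a1, state 3 had Col18a1, Nid2 and Pxdn higher, by 0.94 ± 0.18, 1.67 ± 0.46 and 0.86 ± 0.26. Nid2 and Pxdn ended with DESeq2 (1.76, adjusted p = 0.11 and 0.81, adjusted p = 0.35), and Col18a1 without biological replicate 2 (0.64, adjusted p = 0.21).

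**Figure D5:**
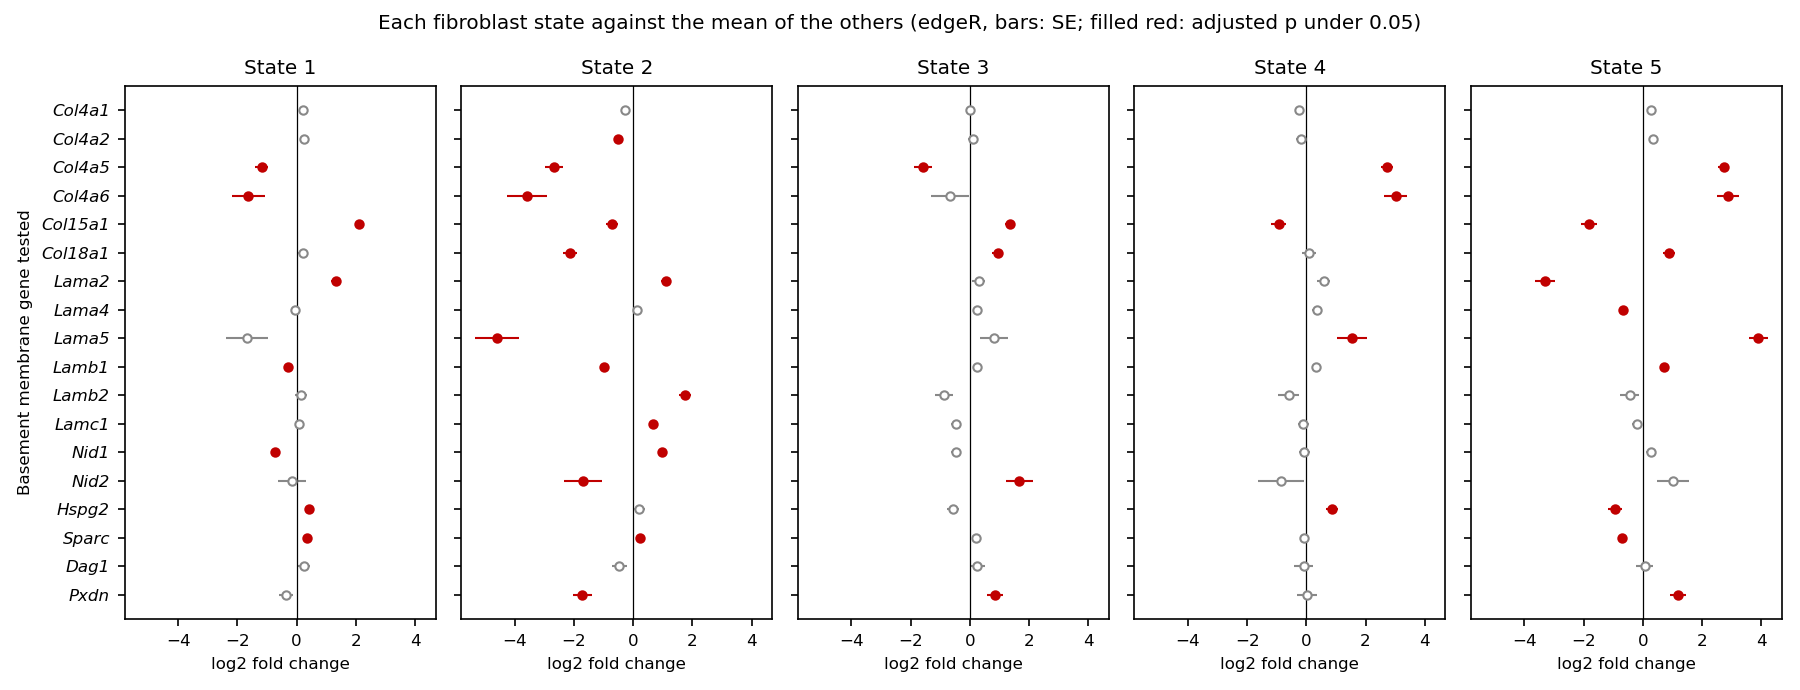
Log2 difference of each tested member between a fibroblast state and the mean of the other states, with bars of 1 SE and filled red points for adjusted p under 0.05 (edgeR; open grey points did not pass). Col4a5 lies at 2.72 in states 4 and 5, Lama2 at -3.31 in state 5 and Col15a1 at 2.10 in state 1.

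The lists outside the members also differed between the states. Further basement membrane components had 6 higher and 0 lower of 8 tested in state 2 (19.3% and 14.7% of all genes), and 1 higher and 5 lower in state 5 (15.8% and 8.57%), with medians of 1.51 and -1.84. Fbln1 stood at 1251 ± 48.01 CPM in state 2 and 174 ± 59.9 in state 5, where the difference was -2.07 ± 0.16 (SE), adjusted p = 3.6e-18. Matn2 in state 5 was 34.98 ± 1.60 CPM (-2.29 ± 0.28). State 4 had 3 components higher and 3 lower (9.93% and 11%): Egflam, which encodes the dystroglycan ligand pikachurin, stood at 41.5 ± 1.66 CPM there against at most 10.1 elsewhere. State 1 had 5 higher and 1 lower (12.9% and 13.2%), and state 3 had 2 and 1 (8.87% and 1.55%). Leprel1, a prolyl 3-hydroxylase known to act on collagen IV, was higher in both subepithelial states, at 69.4 ± 12.5 CPM in state 4 and 59.4 ± 2.23 in state 5, against 2.00 in state 2 (adjusted p = 0.00091 and adjusted p = 0.00011). Of 11 turnover genes tested, 0 were higher and 4 lower in state 4, 6 and 2 in state 5, 3 and 3 in state 2, 5 and 0 in state 3 and 2 and 5 in state 1, to be read against those same shares of all genes. Adamts1, a secreted metalloprotease, stood at 228 ± 9.11 CPM in state 4 and 2365 ± 330.2 in state 2. Hpse, the heparanase that cuts heparan sulfate chains, stood at 4.34 ± 6.14 CPM in state 2 and 84.6 to 178 in the others (adjusted p = 1.4e-15). Sdc4, a syndecan receptor, was 1024 ± 218 CPM in state 5, higher by 2.07 ± 0.12 (SE), adjusted p = 1.1e-23.

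The other 10 members are not covered by the class tests, because their counts were too low at this depth. These are Col4a3, Col4a4, Col4a6, Lama1, Lama3, Lamb3, Lamc3, Fras1, Frem1 and Smoc2. In kept cells Lamb3 had 10 UMIs, 4 of them among the 22 epithelial-like cells, and Lamc3 had 15, 8 of them in pericytes. Fras1 had 5 UMIs and Frem1 12, both genes of the complex that anchors epithelia to mesenchyme in development. Among the member genes, 19 overlap another annotated gene and 11 overlap one on the same strand, and how the authors' counting treated such reads is not given in the sources used here.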

How the data were processed

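Polyadenylated RNA of single cells from mouse colonic mesenchyme was measured by Drop-seq in 5 collections of 1 group. The authors deposited 1 table of raw UMI counts per gene and barcode for each collection; per the submitters' processing notes, STAR 2.6 and mm10 were used. The counting program, its annotation and its use of strand are not given in the sources used here. No per-sample column was left unused (0).

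Barcodes with at least 300 genes and at most 10% mitochondrial UMIs were kept, and Scrublet (expected rate 0.05) marked doublets. Scanpy 1.11.5 (Python 3.11.15) clustered cells on 2000 variable genes, 30 components and 15 neighbours, without the 30 members and 71 list genes, at resolution 1.0, and at 0.5 within fibroblasts, lymphoid and blood endothelial cells. Clusters were named where at least 3 markers were raised. The members and lists were chosen with earlier results of these data known.

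Counts were summed per biological replicate and class (73009 to 2360626 UMIs) or fibroblast state (140496 to 1031549 UMIs). They were tested with edgeR 4.0.16 (R 4.3.3, glmQLFit, TMM, filterByExpr, biological replicate as a block, two-sided, Benjamini-Hochberg over all genes). The same fit was also run on simulated counts, and the outcome is not given here. The filter stood at about 46.2 CPM for classes and 26.7 CPM for states. Intervals and floors cover counting error only. Members could all be named; from each list, up to 3 genes with the largest called difference, at least 20 CPM and the same direction in both replicates were named, while list genes shown for a second class were chosen after their values were seen. Alternatives were DESeq2 1.42.0, its size factors, no gene filter, no block, sums per collection, each collection or replicate left out, other barcode and doublet filters, clustering with the lists, and UMIs split between clustering and sums. Leaving out shared barcodes, or a blood endothelial subcluster, was added after the data were seen.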

Additional observations from a re-analysis of the deposited data

Results flagged for a closer look

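Among 55 combinations of a member with a class or state that held at least 100 UMIs, 3 had a collection far from the other 4, and chance alone marks about 1 in 20 such groups. Lama4 in blood endothelium stood at 88.5 CPM in collection 2B, against 162 to 177 in the others. Sparc in enteric glia stood at 7617 CPM in collection 2C, and Lama2 in fibroblast state 1 at 213 CPM in collection 2C. Outside the cells analysed, the members summed to 4859 CPM in the 1263 barcodes with under 300 genes and to 4249 CPM in the 667 with over 10% mitochondrial UMIs, against 6324 CPM in kept barcodes.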

How the results depend on the processing

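Of the 143 class calls on single members, an alternative counts only those whose gene and class were in its fit. These calls ended most often without biological replicate 1 (31 of 102) or 2 (30 of 134) and with split UMIs (30 of 123). No call on a class or a class pair changed direction in any alternative run (2374 held and 228 ended for classes, 778 and 61 for pairs). For states 666 held, 67 ended and 3 turned: Col15a1 in state 4 with a minimum of 200 genes (0.28), Hspg2 in state 5 without the top 5% of doublet scores (0.11) and Lama4 in state 5 with split UMIs (0.0061). Each of those settings found 4 states and not 5, so the states compared differed. The cause was not tested.

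The number of members called ranged, with each collection or biological replicate left out in turn, from 11 to 18 in fibroblasts, 9 to 17 in blood endothelium, 9 to 15 in lymphatic endothelium, 8 to 16 in glia, 9 to 14 in smooth muscle, 7 to 10 in pericytes, 3 to 12 in macrophages, 5 to 15 in the T, NK and ILC class, 6 to 12 in B cells and 4 to 10 in dendritic cells. It ranged from 7 to 13 between the endothelia, 2 to 7 between pericytes and smooth muscle, and 9 to 13 for fibroblasts against pericytes and against glia. In states 1 to 5 it ranged from 5 to 8, 11 to 14, 3 to 5, 2 to 6 and 8 to 11. Most low values came without a whole biological replicate, where the spread came from 1 replicate's collections.

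With split UMIs the counts were 7 in B cells, 8 in the T, NK and ILC class, 11 in blood endothelium, 7 in macrophages, 9 in smooth muscle, 3 between pericytes and smooth muscle and 3 in state 4. State 3 had 3 members called with DESeq2, and 8 with its size factors in edgeR and with sums per collection. State 4 had 8 with sums per collection and 8 with the lists kept in the clustering.

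Without the biological replicate block, 140 of 143 class calls, 46 of 46 pair calls and 41 of 43 state calls held. The block rests on the labels, which name the replicate of each collection. Members with few UMIs are limited by depth.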
